A study of Mus musculus with 48 samples.

Results

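Epididymal white adipose tissue (eWAT), the large visceral fat depot beside the testis of the male mouse, was compared between thermoneutral and room temperature housing in mice lacking angiotensinogen (Agt) in hepatocytes (hepAGT-/-, here KO). All libraries labelled with that genotype and tissue were taken, 4 from thermoneutral housing (TN, 30 °C) and 4 from room temperature (RT, 20 to 22 °C), which makes 8 of the 48 libraries of the study. Every change given is TN minus RT. The other libraries of the study came from liver, brown fat and eWAT of KO mice and of littermates without the deletion (hepAGT+/+, here WT), and the 8 WT eWAT libraries are used below for the spread and as reference values. All mice were male and were fed Western diet, with 21% milk fat and 0.2% cholesterol, during 12 weeks of housing, so diet and sex were common to both housing groups, as was the deletion to both KO groups. The labels name biological replicates. They give neither age, strain background nor the Cre line that deletes Agt, and they do not say whether mice of a group shared a cage.

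White adipocytes store triglyceride in 1 large droplet and secrete leptin and adiponectin, and the depot also holds fat cell precursors, macrophages, vessels and a mesothelial covering. At room temperature a mouse is below its thermoneutral range and spends energy on heat. That demand is met chiefly by brown fat and by beige cells of subcutaneous fat, which burn fatty acids in mitochondria through uncoupling protein 1, while the epididymal depot is known for few such cells. Fat stored in a depot comes from the diet and from de novo lipogenesis, the making of fatty acids from acetyl-CoA, and an expanding depot remodels its collagen matrix.

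Levels are given in CPM, a gene's counts per megacount of its library, after TMM scaling, which evens out libraries of different composition. Changes are log2 fold changes with their standard error (SE) from edgeR, and a gene was called when its Benjamini-Hochberg adjusted p across the 18933 genes tested was under 0.05. Where a value is given for each library, the order is RT replicates 9, 10, 16 and 19, then TN replicates 3, 4, 5 and 21. The 8 KO libraries held 31.0 to 43.7 megacounts. The labelled tissue was borne out by its markers: the 19 adipocyte identity genes found in the files were all tested, and their summed level was 70181 to 86703 CPM at RT and 66148 to 83586 CPM at TN. Markers of other cells were summed over 16 lists, and in each list the range at RT overlapped that at TN. Macrophage genes were listed apart and did not overlap, with sums of 1424 to 1877 CPM at RT and 2099 to 2524 CPM at TN. Nor did MHC class II genes (1008 to 1360 and 1563 to 1886 CPM) or cytokine and chemokine genes (363 to 546 and 594 to 664 CPM). Sums of lipid-associated macrophage genes and of interferon-stimulated genes overlapped. Liver transcripts were present and uneven. Albumin (Alb) was at 74.0, 643, 2884 and 1346 CPM at RT and at 198, 319, 46.2 and 150.3 CPM at TN. RT replicate 16 also had the highest sum of blood genes, 754 CPM against 91.4 to 198 CPM in the other RT libraries. Epididymis transcripts summed to 3.78 to 32.5 CPM at RT and 8.02 to 26.5 CPM at TN, with Lcn9 and Cst11 at 0 in all 8 libraries. RT replicate 10 carried less signal from long genes: its level fell by 0.516 on the log2 scale from genes of 1000 exon bases to genes of 8000, against a range of -0.225 to 0.234 in the other 7 libraries. In bulk tissue, fewer cells of a type and less RNA per cell cannot be told apart.

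Leptin and a share of the collagen, matrix and macrophage genes rose at TN in the KO depot, and many nuclear genes of oxidative phosphorylation and the TCA cycle fell. Calls were made for 330 of 18933 genes (1.74%), of which 194 rose (1.02%) and 136 fell (0.718%) at TN. The median absolute change of the called genes was 0.67 on the log2 scale, and 67 genes rose and 11 fell at least 2-fold. The median signed change over all genes tested was 0.021, beside which the medians of gene lists given here may be read. In 310 of the 330 the 4 TN libraries lay wholly outside the 4 RT libraries. Over all genes tested, TN lay wholly above RT in 5.67% and wholly below it in 3.58%. The number of calls rested on single libraries: it was 0 without TN replicate 3 (lowest adjusted p 0.063), 18 without RT replicate 19, and 642 without RT replicate 16. It was also 0 when only the 8 KO libraries were fitted (lowest adjusted p 0.0554). DESeq2 called 1229 genes (7.96% of those to which it gave an adjusted p), which included 327 of the 330, and gave no adjusted p for the other 3.

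**Figure D1:**
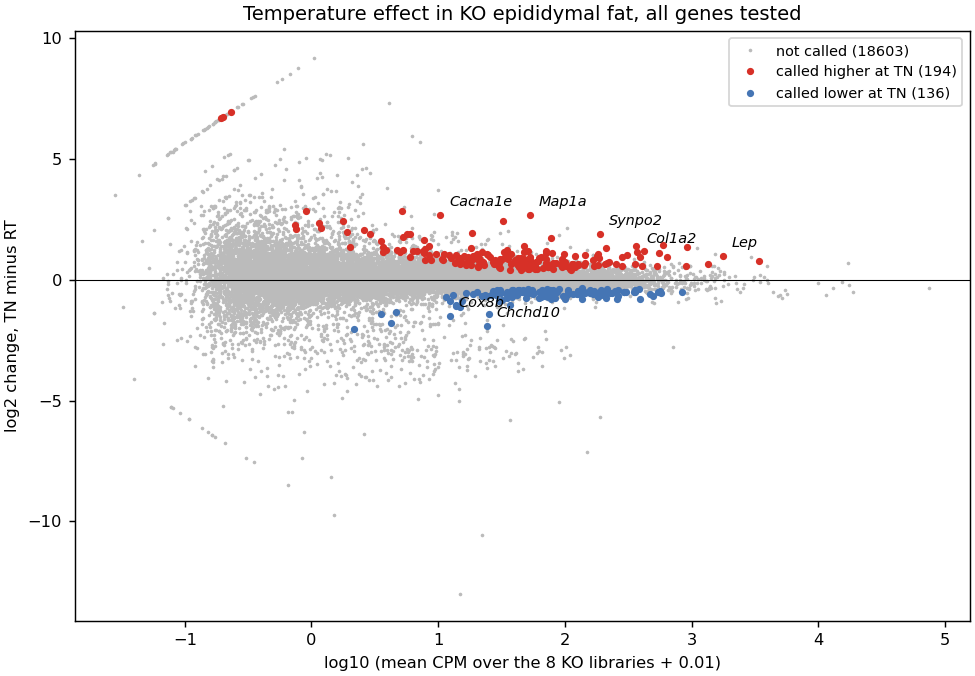
Each point is 1 of the 18933 genes tested in KO eWAT, with its mean level (log10 of mean CPM over the 8 libraries plus 0.01) on the horizontal axis and its log2 change TN minus RT on the vertical axis. Called genes are coloured, with 194 rises and 136 falls, and 67 rises against 11 falls are at least 2-fold.

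Called genes that rose were long. Their median exon length was 6943 bases, against 3669 bases over all genes tested and 3432 bases over the genes that fell. When the trend of level on exon length was taken out of each library, 272 genes were called, 129 higher and 143 lower. The larger number of rises was also lost in other settings: 217 genes were called higher and 250 lower with at least 1 CPM in 4 libraries, 262 and 380 without RT replicate 16, 20 and 43 without RT replicate 10, and 29 and 34 without TN replicate 4. The part of gene length in single rises was not tested.

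Leptin (Lep, ENSMUSG00000059201), the hormone that reports fat stores to the brain, rose at TN. It was at 1119.7, 1359.7, 1223 and 1038 CPM at RT and at 3040.4, 2687, 1365 and 2319 CPM at TN. All TN libraries were above all RT libraries, but TN replicate 5 only just. The log2 change was 0.99 (SE 0.19, adjusted p 0.0212). In WT eWAT, Lep was at 3544 ± 548 CPM (SD, n = 4) at RT and 3827 ± 253 CPM at TN. KO at RT was thus the lowest of the 4 groups. Every KO library at TN was also below the lowest WT library, at 3113 CPM. Lep was the only called gene of 19 adipocyte identity genes (median change -0.14), and the only one of 18 adipokines (median 0.06). Over all genes tested, 1.02% were called higher. Adiponectin (Adipoq), the most familiar insulin-sensitising adipokine, was at 4185, 4872, 2599 and 2675 CPM at RT and at 3189.7, 3351, 4228 and 2633 CPM at TN. These ranges overlapped (log2 change -0.10, SE 0.19, adjusted p 0.863), and the sign turned without RT replicate 10 (0.06) and with the length trend removed (0.03).

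Mest (ENSMUSG00000051855), an imprinted gene whose RNA is known to track fat cell enlargement, was the called member of 15 genes linked to fat cell size. Over all genes tested, 1.02% were called higher. Its level was 154, 205, 231 and 217 CPM at RT and 841, 628, 333 and 329.7 CPM at TN. The groups did not overlap, and TN replicates 3 and 4 were far above the other TN libraries (log2 change 1.40, SE 0.29, adjusted p 0.0313). All 15 members had a change above 0, with a median of 0.67. Among those not called were the secreted Wnt antagonist Sfrp5 (2.14, adjusted p 0.0608) and the imprinted Peg3 (1.33, adjusted p 0.0602). In WT eWAT, Mest had a change of 0.03 from an RT level of 1105 ± 335 CPM.

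**Figure D2:**
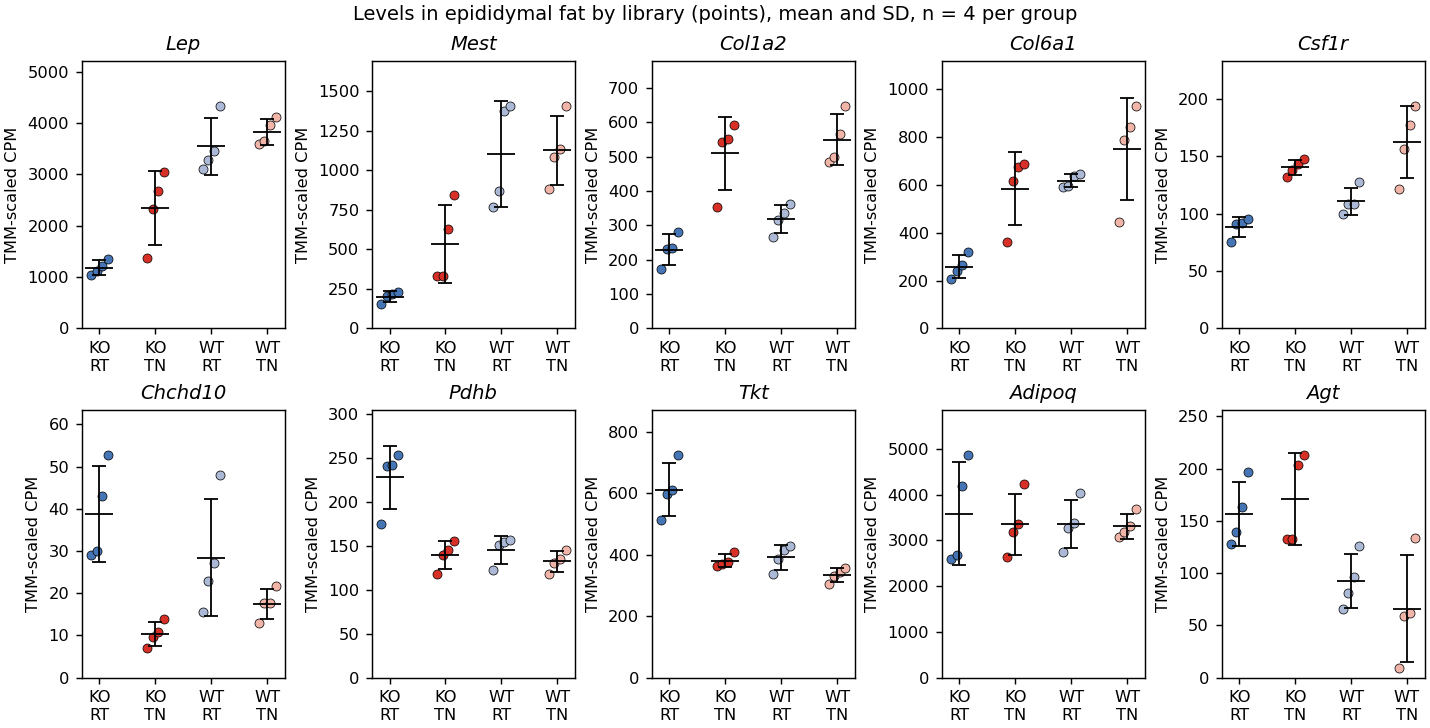
Level in CPM (linear axis from 0) of 10 genes in each of the 16 eWAT libraries (points), with the mean and SD of each group of 4, KO and WT at RT and TN side by side. In KO, Lep runs from 1038 to 1359.7 CPM at RT and from 1365 to 3040.4 CPM at TN, and Pdhb, Tkt and Chchd10 lie lower at TN.

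Genes of the extracellular matrix made up the list with the most rises. Of 38 collagen and matrix genes, all tested, 12 were called higher and none lower, where 1.02% of all genes were called higher. Their median change was 0.65 in KO and 0.31 in WT. The chains of type I collagen, the main fibrillar collagen, were among them. Col1a2 (ENSMUSG00000029661) was at 281, 172, 235 and 229.96 CPM at RT and at 552, 592, 355 and 544 CPM at TN, with no overlap (log2 change 1.15, SE 0.17, adjusted p 0.0129). Col1a1 was at 153, 60.6, 145 and 125 CPM at RT and at 336, 353, 156 and 367 CPM at TN, where TN replicate 5 was just above the highest RT library (log2 change 1.33, SE 0.29, adjusted p 0.0388). Col6a1 and Col6a2, chains of the beaded-filament collagen VI that surrounds adipocytes, rose by 1.18 and 0.95. Postn, the matricellular protein periostin, rose by 0.84. In Col6a2 and Postn, TN replicate 5 lay below the highest RT library, and the other TN libraries above it. The elastic fibre genes Eln and Fbn1 rose by 1.12 and 0.96, and the proteoglycan Bgn by 0.87. Sparc, a collagen-binding glycoprotein abundant in fat, rose from 2520 ± 223 CPM (SD, n = 4) to 4330.3 ± 1193 CPM, by 0.78. Col3a1 had a change of 0.51 and was not called (adjusted p 0.134).

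The wider matrix families, chosen by symbol after their values were seen, gave similar values. Of 33 collagen chains tested, 31 had a change above 0 (median 0.79). Called higher were 7 of the chains, where 1.02% of all genes were called higher, and none was called lower. The seventh of them beside those of the list was Col16a1, a chain that sits on fibril surfaces, which rose by 1.94. Lama3 was the called member of 11 laminin chains and Adamts2, which trims procollagens, that of 15 ADAMTS proteases. The basement membrane proteoglycan perlecan (Hspg2) had a mean of 444 ± 112 CPM at RT and 846 ± 156 CPM at TN, a rise of 0.93 on the log2 scale (SE 0.17, adjusted p 0.0204). Markers of fat cell precursors and fibroblasts were summed to 1157 to 1500.4 CPM at RT and 1493 to 1809.8 CPM at TN, and none of the 14 was called. Those of mesothelium summed to 46.8 to 114 CPM at RT and 113 to 239 CPM at TN, with a median change of 1.23 over 11 genes and none called. Their part in the rise of matrix genes was not tested. Without RT replicate 10, the library low in long genes, 1 of the 38 matrix genes was called, without TN replicate 4 again 1, and without TN replicate 3 none, with medians of 0.55, 0.56 and 0.63. With the length trend removed 7 were called.

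**Figure D3:**
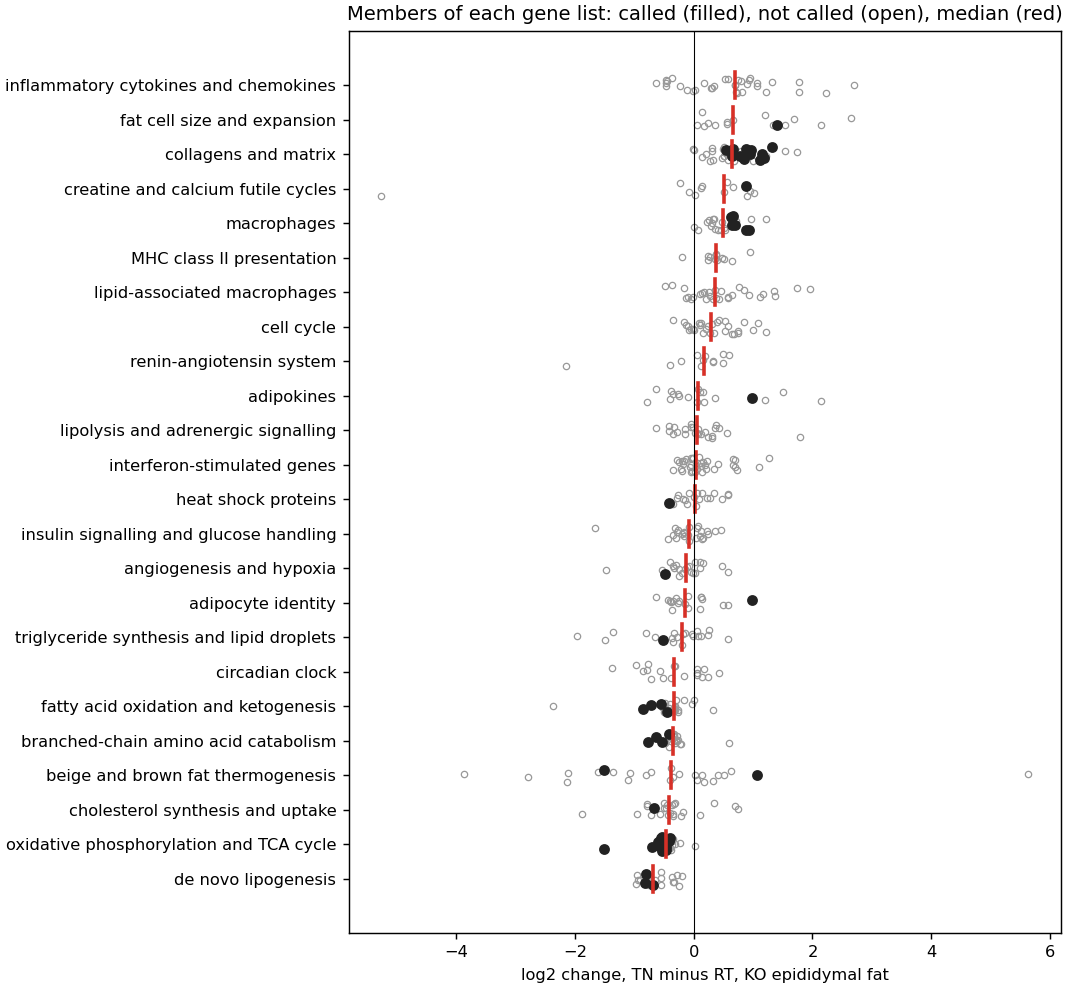
Log2 change TN minus RT in KO eWAT of every tested member of the gene lists, 1 row per list, with called members filled, others open and a red bar at the median. Collagens and matrix sit above 0 with 12 called members, and oxidative phosphorylation and the TCA cycle sit below 0 with 18.

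Nuclear genes of oxidative phosphorylation and the tricarboxylic acid (TCA) cycle, which oxidises acetyl-CoA and feeds the respiratory chain, made up the list with the most falls. Of 37 tested, 18 were called lower and none higher, where 0.718% of all genes were called lower. The change was below 0 in 36 of the 37, with a median of -0.47 in KO. In WT the median was -0.12, and 4 of the 37 were above 0. Pdhb (ENSMUSG00000021748), a subunit of the pyruvate dehydrogenase that makes acetyl-CoA, was at 241, 242, 174 and 254 CPM at RT and at 118, 139, 155 and 145 CPM at TN. The groups did not overlap, and RT replicate 16 was the lowest of its group (log2 change -0.71, SE 0.13, adjusted p 0.0184). Its partner Dlat fell by 0.55. In the cycle itself, citrate synthase (Cs) fell by 0.47, Idh3b by 0.57, Dlst by 0.39, Suclg1 and Suclg2 by 0.41 and 0.52, Fh1 by 0.53 and Mdh2 by 0.53. Fumarase (Fh1) showed little spread at TN, with 115, 120.4, 121 and 117 CPM against 176, 182, 140.4 and 187 CPM at RT. Members of the chain that fell included Ndufs1 and Ndufv1 of complex I, Sdha of complex II, Cyc1, Uqcrc1 and Uqcrfs1 of complex III, and Cox5a and Cox8b of complex IV. Sdha, for example, was at 726, 671, 603 and 713 CPM at RT and at 439, 444, 549.96 and 436 CPM at TN, for a log2 change of -0.54 (SE 0.10, adjusted p 0.0213).

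Summed over the list, the level was 10225 to 12721 CPM in KO at RT and 8191 to 9682 CPM in KO at TN. In WT it was 8298 to 9264 CPM at RT and 7946 to 8779 CPM at TN. For this sum KO at RT lay wholly above the other 3 groups. Families chosen by symbol after their values were seen extended the description. Of 38 complex I subunits 6 were called lower (median -0.41), where 0.718% of all genes were called lower. Of 74 mitochondrial ribosomal proteins 5 were called lower (median -0.33, 72 below 0), with none higher in either family. Of 9 complex III subunits 3 were called lower (median -0.51). Cytosolic ribosomal proteins had none called of 76 (median -0.16). The 13 protein genes of the mitochondrial genome had none called (median -0.51 in KO and -0.42 in WT), and mitochondrial transcripts took 4.63% to 6.81% of counts at RT and 3.69% to 5.05% at TN. Other mitochondrial genes that fell were the protease Lonp1 (-0.47), the chaperones Hspa9 (-0.49) and Hspd1 (-0.41), the elongation factor Tufm (-0.42), the RNA-binding Lrpprc (-0.42) and the pyruvate carrier subunit Mpc1 (-0.67). Hspd1 was the called member of the 20 heat shock genes, which had a median of 0.03. Without RT replicate 16, 34 of the 37 listed genes were called, without RT replicate 19 or TN replicate 3 none, and the median stayed between -0.575 and -0.381 whichever single library was left out. RT replicate 16, the library highest in albumin, was the lowest RT library for Pdhb, Fh1 and Sdha. The 12 hepatocyte markers had a median change of -2.99 with none called, and their part in other falls was not tested.

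Esrra (ENSMUSG00000024955), the nuclear receptor ERR-alpha that acts on promoters of mitochondrial genes, fell as well. It was at 52.5, 42.7, 52.4 and 47.3 CPM at RT and at 32.0, 31.3, 41.9 and 35.0 CPM at TN, with the highest TN library just under the lowest RT library (log2 change -0.48, SE 0.12, adjusted p 0.0493). Promoters of genes that fell were searched after their values were seen for the core of the motif of NRF1, another regulator of nuclear mitochondrial genes (GCATGCGC, or its reverse complement GCGCATGC, in the 250 bases before to 50 after the start, RefSeq). It stood in 10 of 107 promoters of genes that fell (9.35%), in 3 of 145 of genes that rose (2.07%), in 4 of 28 of the oxidative phosphorylation and TCA list (14.3%), in none of 24 matrix genes, and in 648 of 12547 of all genes tested (5.165%). The ERR motif TCAAGGTCA, or its reverse complement TGACCTTGA, was in none of the promoters of called genes, in 1 of the 28 of the oxidative phosphorylation and TCA list (3.57%, the complex II subunit Sdhd) and in 41 of the 12547 (0.327%). The 3 promoters printed here belong to genes that fell and hold the NRF1 core, which is in capitals. They are Esrra (chr19:6921759-6922058, minus strand), the complex III core subunit Uqcrc1 (chr9:108936398-108936697, plus strand) and the complex I assembly factor Ndufaf4 (chr4:24897833-24898132, plus strand), all in GRCm38.p6. A match describes the letters and is not evidence of binding.
Esrra: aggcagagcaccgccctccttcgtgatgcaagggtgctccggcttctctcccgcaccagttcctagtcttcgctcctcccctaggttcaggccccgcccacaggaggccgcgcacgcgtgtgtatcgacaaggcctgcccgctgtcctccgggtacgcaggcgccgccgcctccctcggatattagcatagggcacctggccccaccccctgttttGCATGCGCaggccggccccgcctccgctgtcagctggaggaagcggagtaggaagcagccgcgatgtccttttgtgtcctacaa
Uqcrc1: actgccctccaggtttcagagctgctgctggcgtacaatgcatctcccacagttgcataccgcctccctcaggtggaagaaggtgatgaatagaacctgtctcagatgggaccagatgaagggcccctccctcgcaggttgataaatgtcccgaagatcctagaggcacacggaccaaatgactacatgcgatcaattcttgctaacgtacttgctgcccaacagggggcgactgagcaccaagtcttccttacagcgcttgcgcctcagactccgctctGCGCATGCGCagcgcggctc
Ndufaf4: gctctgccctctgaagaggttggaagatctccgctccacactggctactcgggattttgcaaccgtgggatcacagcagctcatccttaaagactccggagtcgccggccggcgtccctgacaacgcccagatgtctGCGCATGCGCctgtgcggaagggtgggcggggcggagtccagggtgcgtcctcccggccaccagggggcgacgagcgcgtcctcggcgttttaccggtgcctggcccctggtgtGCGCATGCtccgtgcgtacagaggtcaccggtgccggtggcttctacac

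Uqcrc1 was at 231, 241, 205 and 285 CPM at RT and at 151, 174, 187 and 165 CPM at TN, a log2 change of -0.51 (SE 0.11, adjusted p 0.0276). Ndufaf4 was at 24.1, 31.5, 30.6 and 33.0 CPM at RT and at 16.7, 16.6, 19.5 and 22.1 CPM at TN, a log2 change of -0.67 (SE 0.13, adjusted p 0.0204). Neither gene's groups overlapped. In both promoters the 10-base run GCGCATGCGC holds the core on each strand.

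Fatty acid oxidation and amino acid breakdown, which feed the same mitochondria, had fewer called members. Of 26 genes of fatty acid oxidation and ketogenesis, 4 were called lower and none higher (median -0.33), where 0.718% of all genes were called lower. Etfb, which passes electrons from acyl-CoA dehydrogenases to the chain, was at 39.3, 53.4, 30.3 and 39.9 CPM at RT and at 17.5, 24.1, 26.1 and 22.5 CPM at TN, with no overlap (log2 change -0.85, SE 0.17, adjusted p 0.022). Ehhadh fell by 0.73, Acadvl, the very long chain acyl-CoA dehydrogenase, by 0.55, and the peroxisomal thiolase Acaa1a by 0.44. None of the 26 was called without RT replicate 10, RT replicate 19, TN replicate 3 or TN replicate 21, and 1 without TN replicate 4, against 12 without RT replicate 16 and 9 without TN replicate 5. Of 23 genes of branched-chain amino acid catabolism, 4 were called lower and none higher (median -0.34). They were the mitochondrial transaminase Bcat2 (-0.78, with groups that overlapped), Mccc1 (-0.63), the kinase Bckdk (-0.53), which restrains the pathway, and Dld (-0.42), a subunit shared with pyruvate dehydrogenase. None of these 23 was called without RT replicate 19, TN replicate 3 or TN replicate 21, 1 without RT replicate 10 or TN replicate 4, and 2 without RT replicate 9, against 8 without RT replicate 16 and 11 without TN replicate 5. The medians of both lists were below 0 with each library left out.

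De novo lipogenesis had all 21 members below 0, with a median of -0.69 in KO and -0.41 in WT, where all 21 were below 0 as well. In KO 3 were called lower and none higher, where 0.718% of all genes were called lower. The count was 0 without TN replicate 3, 1 without RT replicate 19 or TN replicate 21, 2 without RT replicate 9, RT replicate 10 or TN replicate 4, 5 without RT replicate 16 and 13 with DESeq2. Tkt (ENSMUSG00000021957), the transketolase of the pentose phosphate pathway, was at 726, 597, 514 and 613 CPM at RT and at 371, 364, 410.5 and 376 CPM at TN, with no overlap (log2 change -0.69, SE 0.11, adjusted p 0.0129). Slc25a1, which exports citrate from mitochondria, fell by 0.81, and the acetoacetyl-CoA synthetase Aacs by 0.80. The central enzymes were not called: fatty acid synthase (Fasn) had a change of -0.77 (adjusted p 0.101), Acly of -0.91 (adjusted p 0.147) and Scd1 of -0.37 (adjusted p 0.176). Sc5d, a late enzyme of cholesterol synthesis, fell by 0.67 and was the called member of 24 cholesterol genes (median -0.41). Among 21 genes of triglyceride synthesis and droplets, Bscl2, the seipin of droplet formation, fell by 0.52 (median -0.20). Pemt, which makes phosphatidylcholine by methylation, was at 12.1, 16.2, 23.5 and 22.9 CPM at RT and at 8.85, 9.47, 7.43 and 9.76 CPM at TN, for a log2 change of -1.07 (SE 0.21, adjusted p 0.0235). Pemt is known chiefly from liver, and its order among the RT libraries was that of albumin. Among the TN libraries the orders differed, with replicate 21 highest in Pemt and replicate 4 in albumin. RT replicate 9 was lower in albumin than TN replicates 3, 4 and 21, and had more Pemt than every TN library. The 12 hepatocyte markers summed to 3117 to 9494 CPM at RT and 3312 to 4409 CPM at TN. RT replicate 9 had the lowest sum of the 8 libraries, but Cyp2e1 (2349 CPM) and Hp (622 CPM) made up most of it. It was not the lowest in albumin, at 73.1 CPM by plain library totals against 46.4 CPM in TN replicate 5. The part of liver transcripts in the size of the fall of Pemt was not tested.

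Ucp1, the uncoupling protein of brown and beige fat, was close to absent from this depot at both temperatures. It was at 0.390, 0.068, 0.391 and 0.068 CPM at RT and at 0, 0.101, 0 and 0.098 CPM at TN, too low for a call (adjusted p 0.385). Of 25 thermogenic genes tested, 1 was called in each direction (median -0.38), where 1.02% of all genes were called higher and 0.718% lower. None of the 25 was called without RT replicate 10, RT replicate 19, TN replicate 3 or TN replicate 4. Cox8b, the muscle-type complex IV subunit that marks brown and beige fat, was at 13.1, 22.1, 12.0 and 25.7 CPM at RT and at 4.38, 6.93, 8.41 and 6.00 CPM at TN, with no overlap (log2 change -1.50, SE 0.34, adjusted p 0.036). The potassium channel Kcnk3 rose by 1.06, from 13.0 ± 2.93 CPM to 27.2 ± 5.92 CPM. Among 13 genes of creatine and calcium cycling, the creatine transporter Slc6a8 rose by 0.87 and was the only one called. None of these 13 was called without RT replicate 10 or 19, or without TN replicate 3, 4 or 21. The 25 genes of lipolysis and adrenergic signalling had none called (median 0.05), and those nearest to a call were Npr3, the natriuretic peptide clearance receptor (0.56, adjusted p 0.0698), and Prkaca (-0.34, adjusted p 0.132). Clstn3 (calsyntenin 3), a membrane protein of the cadherin superfamily, was at 41.0, 42.6, 50.7 and 63.6 CPM at RT and at 22.8, 26.9, 27.4 and 18.9 CPM at TN, for a log2 change of -1.04 (SE 0.22, adjusted p 0.0284). In WT its change was -1.10, also with no overlap (adjusted p 0.135).

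Several macrophage genes rose as well. Of 24, 6 were called higher and none lower, where 1.02% of all genes were called higher. All 24 were above 0 in KO, with medians of 0.49 in KO and 0.62 in WT. Csf1r (ENSMUSG00000024621), the growth factor receptor that macrophages depend on, was at 95.5, 90.8, 92.0 and 75.7 CPM at RT and at 143, 138, 148 and 132 CPM at TN, with no overlap (log2 change 0.67, SE 0.13, adjusted p 0.0212). The other called members are known from resident macrophages: the mannose receptor Mrc1 (0.63), the lectin Clec10a (0.65), the haemoglobin scavenger receptor Cd163 (0.88), the hyaluronan receptor Lyve1 (0.93) and the efferocytosis receptor Mertk (0.69). Lyve1 is also made by lymphatic endothelium, and of the 12 endothelial markers it alone was called (summed level 437 to 1026 CPM at RT and 608 to 670 CPM at TN). Of 30 genes of lipid-associated macrophages none was called (median 0.37), with Slc37a2 (1.37, adjusted p 0.0539) and Ctsk (0.76, adjusted p 0.0698) nearest. The 34 cytokine and chemokine genes had none called (median 0.70), and Ccl7 had a change of 1.07 (adjusted p 0.0596). None of 36 interferon-stimulated genes was called (median 0.05 in KO and 0.34 in WT), nor any of 12 genes of MHC class II presentation (median 0.38 in KO and 0.71 in WT). Genes of the dissection and stress response summed to 143 to 293 CPM at RT and 227 to 386 CPM at TN. Without TN replicate 4 or RT replicate 10, 1 of the 24 macrophage genes was called, and without TN replicate 3 or RT replicate 19 none.

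The renin-angiotensin system had no called member among 12 tested, with a median of 0.17. Agt in fat is made by adipocytes and was not the target of the deletion, so its level there does not check the genotype. It was at 196, 164, 128 and 139 CPM at RT and at 132, 133, 204 and 213 CPM at TN, and the groups overlapped (log2 change 0.12, SE 0.53, adjusted p 0.942). Its sign turned without TN replicate 21 (-0.01). Nearest to a call were the converting enzyme Ace (0.50, adjusted p 0.0709) and Agtrap, which binds and internalises the angiotensin receptor (0.49, adjusted p 0.0845), both with TN wholly above RT. Agtr1b, Mas1 and Ctsg were at 0 in all 8 libraries.

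Genes of the clock had none called of 19 (median -0.33), with Cry1 (-0.77, adjusted p 0.201) and Clock (0.25, adjusted p 0.402) nearest. The 25 genes of insulin signalling and glucose handling (median -0.08) and the 30 of the cell cycle (median 0.29) had none called either. Of 22 genes of angiogenesis and hypoxia, Vegfb, a growth factor coexpressed with mitochondrial genes, fell by 0.49 (median -0.13). It was the only one called, where 0.718% of all genes were called lower.

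Among genes selected by the size of their change at a mean of at least 1 CPM and with no overlap between the groups, the rises were in genes of low to moderate level. Map1a (ENSMUSG00000027254), a microtubule-associated protein, was at 14.9, 9.06, 18.7 and 14.6 CPM at RT and at 149, 115, 27.5 and 73.3 CPM at TN, a change of 2.67 on the log2 scale (SE 0.41, adjusted p 0.0178). The calcium channel subunit Cacna1e was at 4.13, 1.36, 4.19 and 1.57 CPM at RT and at 28.5, 15.0, 7.81 and 20.6 CPM at TN, for a log2 change of 2.67 (SE 0.45, adjusted p 0.0184). In both genes TN replicate 5 was the lowest of its group, yet above every RT library. Mrc2, the endocytic collagen receptor of fibroblasts, was at 12.6, 6.30, 10.8 and 11.7 CPM at RT and at 102.9, 76.1, 14.6 and 27.1 CPM at TN, for a log2 change of 2.41 (SE 0.52, adjusted p 0.0406). Synpo2, an actin-binding protein, rose by 1.90, and Ogdhl, a homologue of the TCA cycle enzyme Ogdh, by 2.07 from 0.990 ± 0.682 CPM. The remaining rises selected by size were Zfp618 (2.42), Fcamr (2.35), Fam184a (1.95), Plekha7 (1.90), Zfyve28 (1.90) and Map3k7cl (1.75), with mean levels at TN under 10 CPM. Each of the 8 KO libraries was left out in turn, which gave 8 fits. The call was kept in 6 for Map1a and Zfp618, 5 for Cacna1e and Plekha7, and 3 for Synpo2, Fam184a and the collagen chain Col16a1. It was kept in 2 for Ogdhl, Zfyve28 and Map3k7cl, 1 for Mrc2 and 0 for Fcamr.

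Among the falls selected in the same way, the first was a mitochondrial gene. Chchd10 (ENSMUSG00000049422), a protein of the intermembrane space, was at 52.8, 30.0, 43.0 and 29.0 CPM at RT and at 7.12, 10.7, 9.52 and 13.8 CPM at TN. All RT libraries were far above all TN libraries (log2 change -1.91, SE 0.31, adjusted p 0.0178). Parm1 fell by 1.41, the secreted Fam19a5 by 1.35 and Fam69b by 1.05. Aspa, which splits N-acetylaspartate into aspartate and acetate, fell by 0.90, Fahd1, a mitochondrial oxaloacetate decarboxylase, by 0.89, and the reductase Dhrs7 by 0.82. Gstp-ps, at 16.1 ± 0.392 CPM and 8.69 ± 0.568 CPM, fell by 0.89. It is a pseudogene, and its reads may be shared with the Gstp genes. With each of the 8 KO libraries left out in turn, Chchd10, Gstp-ps and Dhrs7 kept their call in 7 fits and Fam19a5 in 6. Fam69b, Aspa and Fahd1 kept it in 3 and Parm1 in 1. Of the falls selected by size that were described earlier, Pemt kept its call in 5, Etfb in 4, and Cox8b and Clstn3 in 3.

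The same change of housing gave no called gene in WT eWAT: 0 of 18933 with edgeR (0%), with 1324 genes at an unadjusted p under 0.05 and a lowest adjusted p of 0.0801, and 104 with DESeq2 (0.673%). In KO, 3311 genes had an unadjusted p under 0.05. Whether the temperature change differed between the genotypes was tested by the interaction. No gene was called (0 of 18933, 0%, lowest adjusted p 0.494), 1439 had an unadjusted p under 0.05, and DESeq2 called 10 (0.0357%). Of the 330 genes called in KO, 280 had a WT change of the same sign. The share with the same sign over all genes tested was not counted, so the 280 has no background to be read against. The genes that rose had medians of 0.84 in KO and 0.22 in WT, and those that fell -0.55 and -0.16. These genes were chosen on the KO change, which favours a larger value in KO, so the medians are a description with no test. For Lep the interaction was 0.88 (SE 0.26, adjusted p 0.553), for Mest 1.37 (SE 0.41, adjusted p 0.553) and for Clstn3 0.06 (SE 0.30, adjusted p 0.978).

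**Figure D4:**
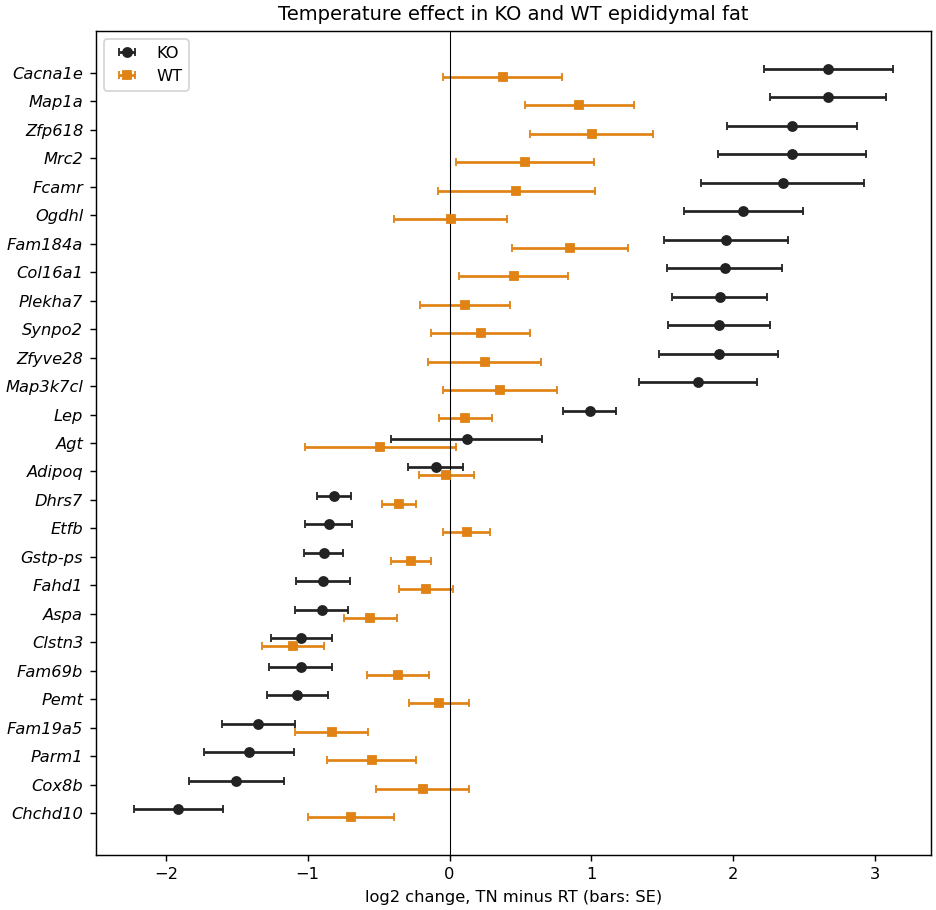
Log2 change TN minus RT with its SE in KO and in WT eWAT for the 24 genes selected by size in KO and for Lep, Adipoq and Agt. The selected KO values lie farther from 0 than the WT values except for Clstn3, at -1.04 in KO and -1.10 in WT, and the interaction of no gene was called.

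**Figure D5:**
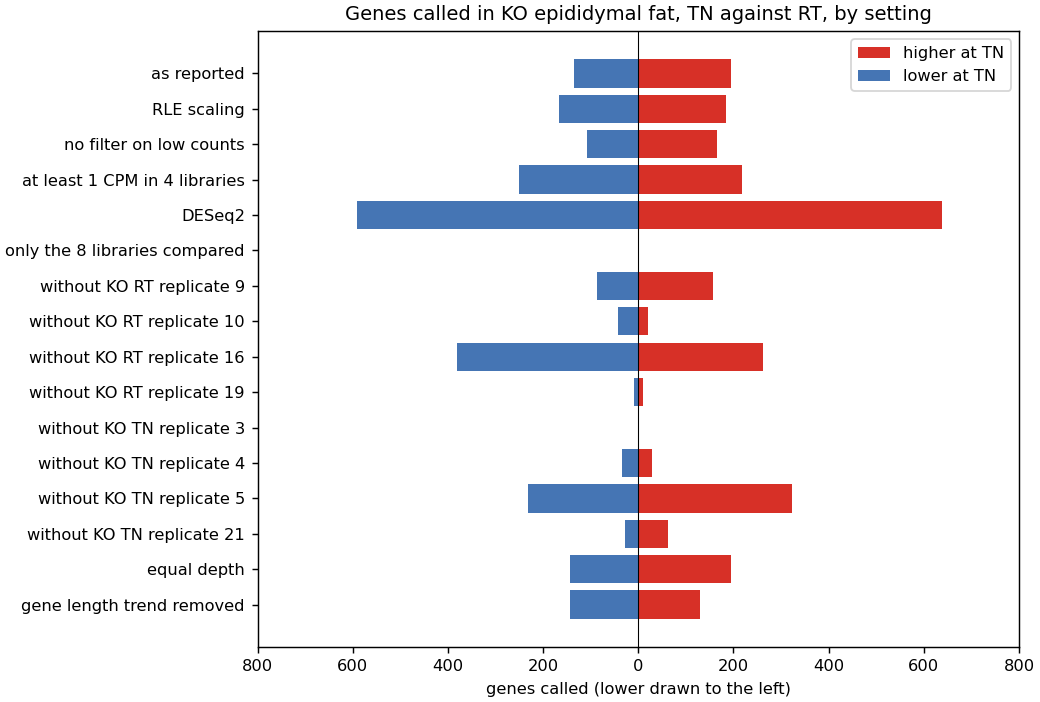
Number of genes called in KO eWAT under each setting of the analysis, with higher calls drawn to the right of 0 and lower calls to the left. The counts run from 0 (without TN replicate 3, or with only the 8 libraries fitted) to 1229 (DESeq2), against 330 as reported.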

How the data were processed

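RNA was extracted from snap-frozen tissue with Maxwell RSC kits, and NEBNext Ultra libraries were sequenced from both ends on a NovaSeq instrument, per the labels' protocols. The values are raw read counts per gene and library as deposited by the authors. The submitters' processing notes name fastp, STAR 2.6.1d and featureCounts 1.5.0-p3 and the build GRCm38 (mm10). The annotation and the strand setting are not given in the sources used here, so overlapping and antisense genes cannot be told apart. Of 56748 gene identifiers 52073 had a symbol in the reference table. Gene coordinates are not given except for RefSeq promoters. Of the called genes, 107 of 136 that fell and 145 of 194 that rose matched a promoter.

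The 16 eWAT libraries were fitted together in R 4.3.3 with edgeR 4.0.16 (filterByExpr at a minimum count of 10, TMM scaling, a separate mean for each group, two-sided robust quasi-likelihood F tests), and TN minus RT was taken within each genotype and between genotypes. P-values rest on the spread between libraries within groups, estimated over all 16 eWAT libraries, those of WT included. The procedure was tested on simulated data. Marker sums use plain library totals.

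The gene lists, marker lists and the comparison were chosen with earlier results of these data known. Named genes were Agt, Lep, Adipoq and Ucp1, then per direction up to 12 called genes with the largest change, a mean over the 8 libraries of 1 CPM or more, groups that did not overlap and a symbol that is not a clone name, and for every list up to 4 called members, or the 2 of lowest p where none was called. Other genes named, the families by symbol and the promoter motifs were chosen after their values were seen. A few selected genes are not reported here. Of the listed symbols, Tusc5 and Tmem27 found no match. The alternatives were RLE scaling, no filter, a filter of 1 CPM in 4 libraries, DESeq2 1.42.0, a fit of only the libraries compared and leaving out each library. Equal depth and removal of the length trend were added after seeing the data.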

Additional observations from a re-analysis of the deposited data

Results flagged for a closer look

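In 228 groups of 4 libraries checked for 1 library far from the other 3, 12 showed one, about as many as the 5% of such groups that chance gives. In RT replicate 16, Ogdhl was at 2.01 CPM against 0.613 to 0.683 CPM in the other RT libraries, Synpo2 at 127 CPM against 61.8 to 66.3 CPM, Cd163 at 50.9 CPM against 40.5 to 41.9 CPM, Pdhb at 174 CPM against 241 to 254 CPM and Acadvl at 233 CPM against 278 to 287 CPM. Its blood genes summed to 754 CPM against 91.4 to 198 CPM. In RT replicate 10, Ehhadh was at 128 CPM against 77.2 to 81.4 CPM, and in RT replicate 9, Vegfb was at 161 CPM against 144 to 145 CPM.

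Among the TN libraries, replicate 21 had Ogdhl at 6.61 CPM against 3.28 to 3.56 CPM and a sum of epididymis genes of 26.5 CPM against 8.02 to 10.0 CPM. TN replicate 5 had Col1a1 at 156 CPM against 336 to 367 CPM and Irs1 at 65.6 CPM against 44.8 to 47.8 CPM.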

How the results depend on the processing

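No paired analysis was possible because the KO libraries at RT (replicates 9, 10, 16 and 19) and at TN (3, 4, 5 and 21) share no replicate number. The count of 330 genes called in KO (194 higher, 136 lower) became 350 with RLE scaling (184 and 166), 273 with no filter (165 and 108), 467 with at least 1 CPM in 4 libraries (217 and 250), 1229 with DESeq2 (639 and 590), 0 with only the 8 libraries compared (lowest adjusted p 0.0554, 3018 genes at an unadjusted p under 0.05), 337 at equal depth (194 and 143) and 272 with the gene length trend removed (129 and 143). Leaving out 1 library gave 0 (TN replicate 3, 2455 genes at an unadjusted p under 0.05) to 642 (RT replicate 16, 262 higher and 380 lower). Between these were 18 without RT replicate 19, 63 without RT replicate 10 and 63 without TN replicate 4, 91 without TN replicate 21, 245 without RT replicate 9 and 554 without TN replicate 5. With 1 library fewer in a group the filter let more genes through, and the cause of the other shifts was not tested. The 53 called genes selected by the rule had the same sign in each of these settings. Of them 53 were called with RLE scaling, the stricter filter, DESeq2 and equal depth, 50 with the length trend removed and 42 with no filter. None was called without TN replicate 3 or with only the 8 libraries. Without RT replicates 9, 10, 16 and 19 in turn, 38, 13, 49 and 6 were called. Without TN replicates 4, 5 and 21 in turn, 15, 50 and 21 were called.

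In WT the count of 0 became 1 with no filter and 104 with DESeq2, and ranged from 0 to 13 with 1 library left out, the highest without WT TN replicate 8 (2 without WT TN replicate 23). For the interaction it became 10 with DESeq2 and ranged from 0 to 4, the highest without WT TN replicate 23 (1 without KO RT replicate 9). Signs that turned were those of genes not called. Adipoq (-0.10) came to 0.026 with the length trend removed and ranged from -0.2378 (without RT replicate 16) to 0.0635 (without RT replicate 10) with 1 library left out. Agt (0.12) ranged from -0.0147 (without TN replicate 21) to 0.2426 (without RT replicate 9), and Clock (0.25) came to -0.0012 with the length trend removed. In each group of 4, genes of a few counts, such as Ucp1, were too shallow for a difference to be detectable.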

Other observations

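Further called genes, named after their values were seen, belong to groups the lists did not cover. Their counts may be read beside the shares over all genes tested, 0.718% called lower and 1.02% called higher. Among the mitochondrial carriers of the SLC25 family, 6 of 43 fell and none rose (median -0.24), among them Slc25a39, Slc25a22 and Slc25a11. Among 18 cytochrome c oxidase subunits 2 fell (Cox5a and Cox8b, median -0.49), and among 17 ATP synthase subunits 1 fell (Atp5f1, median -0.39). Among 29 integrins, Itga4 rose (median 0.29). Haptoglobin (Hp), an acute phase protein made by both liver and adipocytes, was at 630, 1115, 895 and 1284 CPM in KO at RT and at 2075, 2632, 1514 and 2013 CPM at TN, with no overlap between the groups and no call (log2 change 1.07, adjusted p 0.136). In WT its change was 0.97 (adjusted p 0.548).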
